A study of Mus musculus with 9 samples.

Results

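The histone cluster genes encode the linker histone H1 and the core histones H2A, H2B, H3 and H4 in groups of neighbouring genes. Members were chosen by name, as every gene of the deposited count table whose symbol in the GENCODE M21 annotation starts with Hist1h, Hist2h, Hist3h or Hist4. The rule used no measured value. It found 67 of the 43629 genes in the table, and 3 further annotated members (Hist1h2bm, Hist1h2bh and Hist2h2bb) were not analysed here. The 67 comprise 54 genes of the Hist1 cluster on chromosome 13, 9 of Hist2 on chromosome 3, 3 of Hist3 on chromosome 11 and 1 of Hist4 on chromosome 6. By type there are 6 H1, 20 H2A, 16 H2B, 12 H3 and 13 H4 genes, and 3 of the 67 are annotated as pseudogenes.

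RNA was sequenced from 9 cultures of mouse embryonic fibroblasts (MEFs), 4 from wild-type (WT) and 5 from Dp1Tyb embryos at E14.5, with 1 culture per embryo. Dp1Tyb animals carry the duplication Dp(16Lipi-Zbtb21)1TybEmcf, an extra copy of a stretch of mouse chromosome orthologous to part of human chromosome 21, and serve as a model of Down syndrome. The embryos were littermates on a C57BL/6J background, to which the strain, named C57BL/6J.129P2 with the duplication, was backcrossed. No member lies in the duplicated stretch. WT replicate 1 and Dp1Tyb replicate 1 form set 1 in the labels and the other 7 cultures set 2, so that within set 1 a genotype and a culture cannot be told apart. P-values here measure the spread between these cultures.

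Most histone cluster genes are made during S phase, when new chromatin needs histones. Their mRNAs usually have no intron and no poly(A) tail. They end shortly after a conserved stem-loop that is bound by SLBP, which governs processing, translation and decay of the mRNA. Some cluster genes also give transcripts that run past the stem-loop, or are spliced around it, and carry a poly(A) tail. The libraries were made with a kit for stranded mRNA that enriches RNA with a poly(A) tail, so the levels below refer to RNA captured in this way, and which form of each mRNA gave the reads was not measured.

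The stem-loop was found in the annotated 3′ ends of 44 of the 67 members, within the first 100 bases after the stop codon. These were 44 of the 48 members with at least 50 bases of annotated 3′ UTR (91.7%). The other members have a shorter annotated 3′ UTR or none, so the annotation can hardly show a stem-loop there. It was rare elsewhere: among 40175 transcripts of other protein-coding genes with at least 100 bases of 3′ UTR, 5 held it (0.0124%), from Bap1, H2afx, H2bfm and Nemp1. Its letters divided the members by type. The 12 H4 members with a stem-loop used 4 forms and the 32 other members with one used 4 different forms. The most frequent form occurred in 24 members of types H1, H2A, H2B and H3, the next in 7 H4 members and the third in 6 members of types H1, H2B and H3. The member with the highest level of each form is shown, with 5 bases on either side in lower case and the 16 bases of the stem-loop in capitals, as DNA letters of the transcript, 5′ to 3′. Hist1h3b is added because it has the most frequent form but an annotated end 51 bases after it, whereas that of Hist1h1c lies 840 bases after it.
Hist1h1c: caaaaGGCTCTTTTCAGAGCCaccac
Hist1h3b: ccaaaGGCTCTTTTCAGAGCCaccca
Hist1h3e: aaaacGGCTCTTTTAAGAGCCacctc
Hist1h3g: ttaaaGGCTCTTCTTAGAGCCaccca
Hist2h2ac: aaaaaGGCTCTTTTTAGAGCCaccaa
Hist1h4h: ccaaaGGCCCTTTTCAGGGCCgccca
Hist1h4i: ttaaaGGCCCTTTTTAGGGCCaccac
Hist1h4j: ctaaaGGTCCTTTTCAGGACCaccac
Hist1h4a: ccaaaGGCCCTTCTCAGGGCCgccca
In all 9 the last bases of the stem are the reverse complement of the first, and the H4 stems differ from the others inside the stem. The search itself required GG at the start, CC at the end and C or T opposite A or G in the stem. Most of this pairing was therefore fixed in advance.

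Promoters also differed by histone type. RefSeq windows from 250 bases before to 50 bases after the gene start (build GRCm38.p6) were matched for 59 members, and each was searched on both strands for 4 motifs. The CCAAT motif was present in all 47 windows of H1, H2A, H2B and H3 members, in 3 of 12 H4 windows and in 37.4% of the 32851 promoters of all genes. The TATA box TATAAA was present in 35 of 59 windows, against 13.6% of all promoters. The octamer ATTTGCAT, a site for OCT factors, was present in 7 of 18 H2A and 5 of 13 H2B windows and in none of the 28 windows of other types, against 1.74% of all promoters. Neighbouring H2A and H2B genes often share one stretch between their starts, so these windows overlap and are not independent. The H1 box AAACACA was present in 5 of 6 H1 windows and 7.18% of all promoters. These matches are descriptions of the letters in the windows.

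**Figure D1:**
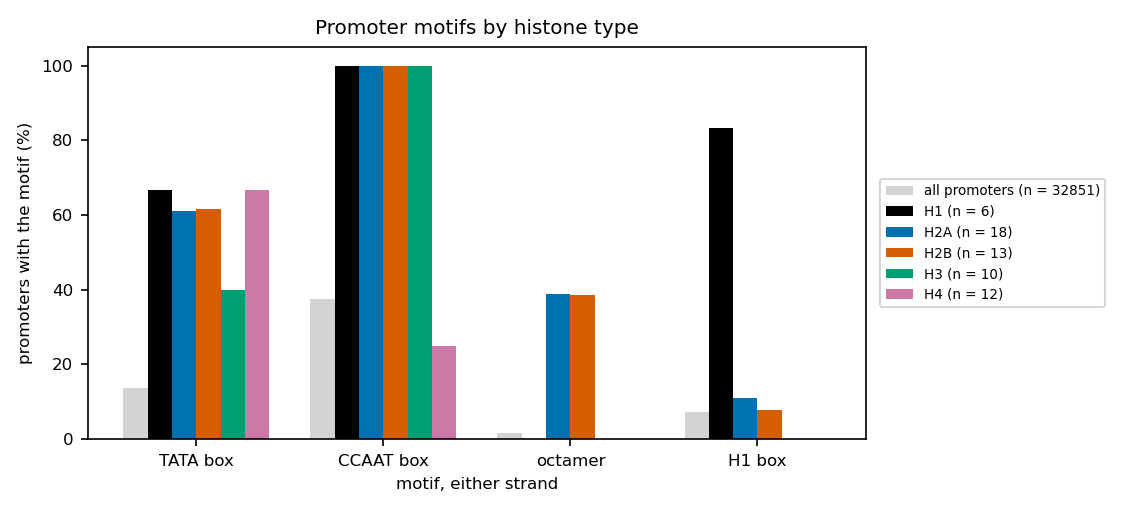
Share of promoter windows (y axis, percent) that hold each of 4 motifs (x axis) on either strand, for all promoters (grey) and the members of each histone type (colours), with the number of windows in the legend. The CCAAT box fills 100% of H1, H2A, H2B and H3 windows and 25% of H4 windows, the octamer appears in H2A and H2B windows alone among the members, and the H1 box in 83.3% of H1 windows.

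Pairs of members start back to back on opposite strands. Of 13 such pairs with both genes listed and starts under 1000 bases apart, Hist1h2ac and Hist1h2bc had the highest summed level. Their starts are 251 bases apart, and the window of Hist1h2ac (chr13:23683910-23684209, minus strand) spans that gap. It is printed with the CCAAT motif, the TATA box and the octamer in capitals, where ATTGG and ATGCAAAT are CCAAT and the octamer read on the other strand. The window of Hist1h4h (chr13:23530794-23531093, plus strand) is shown as a member with none of the 4 motifs.
Hist1h2ac: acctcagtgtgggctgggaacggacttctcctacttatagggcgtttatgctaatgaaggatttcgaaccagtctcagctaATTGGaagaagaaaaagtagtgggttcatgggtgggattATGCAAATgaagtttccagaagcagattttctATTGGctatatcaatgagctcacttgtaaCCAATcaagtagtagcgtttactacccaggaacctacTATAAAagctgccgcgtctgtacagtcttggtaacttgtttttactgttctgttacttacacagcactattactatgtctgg
Hist1h4h: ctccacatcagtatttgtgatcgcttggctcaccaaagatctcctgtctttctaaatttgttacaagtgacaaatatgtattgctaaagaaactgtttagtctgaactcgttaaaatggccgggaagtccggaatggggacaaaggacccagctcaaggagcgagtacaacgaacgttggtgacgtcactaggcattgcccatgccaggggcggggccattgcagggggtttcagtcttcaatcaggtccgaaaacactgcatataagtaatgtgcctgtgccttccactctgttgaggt
The 2 genes of this pair were measured at very different levels although their starts are close: 38.2 ± 7.68 RPKM for Hist1h2bc and 0.163 ± 0.0545 RPKM for Hist1h2ac (SD, n = 9 cultures), a ratio of 234. RPKM, the count per kilobase of exon scaled to the size of the library, allows levels of genes of different length to be compared. Hist1h2ae and Hist1h2bg, whose starts are 176 bases apart, differed 13.1-fold in the same direction, with 0.198 and 2.61 RPKM, and Hist1h2ao and Hist1h2bq differed 8.4-fold, with 0.353 and 2.97 RPKM. The H2B gene was not the higher one in every pair. Hist1h2ai had 0.825 RPKM and its partner Hist1h2bl 0.135, and Hist1h2ad had 1.68 and its partner Hist1h2bf 0.101. These partners rest on few reads, with at most 6 counts in a culture for Hist1h2bl and at most 2 for Hist1h2bf. Only 5.16% of the 100-base windows of Hist1h2bq transcripts and 7.35% of those of Hist1h2ao are absent from the transcripts of other genes, so their counts may rest on little sequence. This share is 11.6% for Hist1h2ai and 37.9% for Hist1h2bl. Hist1h2ao and Hist1h2ai also share windows with genes that overlap them on the opposite strand.

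The depth of the libraries was between 24804539 and 30009361 counted reads. Members took 0.0134% to 0.03% of them, between 4013 and 7963 reads per culture. All 12 fibroblast markers were expressed, and the summed normalised count of 8 erythroid markers was between 5.09 and 13. Summed markers of other cells varied between cultures, from 454 to 7849 for macrophages and from 324 to 6768 for skeletal muscle. Schwann and neural crest markers summed to 1178 to 2357 in WT and 453 to 1145 in Dp1Tyb cultures. In bulk RNA, fewer cells of a type and less RNA per cell cannot be told apart.

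Among the members, 62 had at least 1 count, 43 had more than 3 counts in at least 1 culture, and 28 passed the filter on low counts and were tested. The 5 members with no count in any culture were Hist1h2aa and Hist1h2ba, a divergent pair known from the testis, and Hist1h2ap, Hist2h2aa1 and Hist2h3c1. A count of 0 allows up to 3 counts in a library, and such limits cover counting error only. The authors discarded reads that aligned to more than 1 place, and Hist2h2aa1, Hist2h2aa2, Hist2h3c1 and Hist2h3b have no 100-base window of their own in the annotated transcripts (0% unique windows). Windows shared with a gene annotated at the same place also count as not unique here. Their low counts are not taken as a measure of their expression. Of Hist1h2aa and Hist1h2ba, by contrast, 89.7% and 72.6% of windows are unique.

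A small number of genes held most of the reads. Hist1h1c, which encodes the linker histone H1.2 (chr13:23738808-23740367), had 94.4 ± 25 RPKM (SD, n = 9 cultures), from 52.1 to 126. It took 47.3% to 66.7% of all member reads in each culture. Hist1h2bc, a core histone H2B gene (chr13:23684199-23692908) that is annotated with a spliced transcript without the stem-loop, followed with 38.2 RPKM and 14.4% to 23.2% of member reads. Hist1h4i, a core histone H4 gene (chr13:22040636-22041362), had 11.3 ± 3.08 RPKM. These 3 members held 80.8% of all member reads and were the only ones above 10 RPKM.

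Below them the levels fell off quickly and neighbours in the order were not separated beyond their spread. Hist1h3b (H3) had 4.39 ± 5.50, Hist1h4h (H4) 3.66 ± 2.27, Hist1h4n (H4) 3.01 ± 1.19, Hist1h2bq (H2B) 2.97 ± 0.756, Hist3h2a (H2A) 2.85 ± 0.553 and Hist1h2ab (H2A) 2.73 ± 3.25 RPKM (SD, n = 9 cultures). Hist1h2bg (H2B), Hist2h3c2 (H3), Hist1h3d (H3), Hist1h2ad (H2A), Hist1h2bn (H2B), Hist1h3i (H3) and Hist1h4k (H4) lay between 1.08 and 2.61 RPKM. The other 51 members were below 1 RPKM and 22 of them below 0.1. Hist2h2be had 0.88 RPKM, Hist4h4 had 0.291 and Hist3h2ba 0.0836, the highest of their clusters beside those already named. Of these, Hist3h2a overlaps Trim17 on its own strand, and 22 members overlap an annotated gene on the opposite strand.

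**Figure D2:**
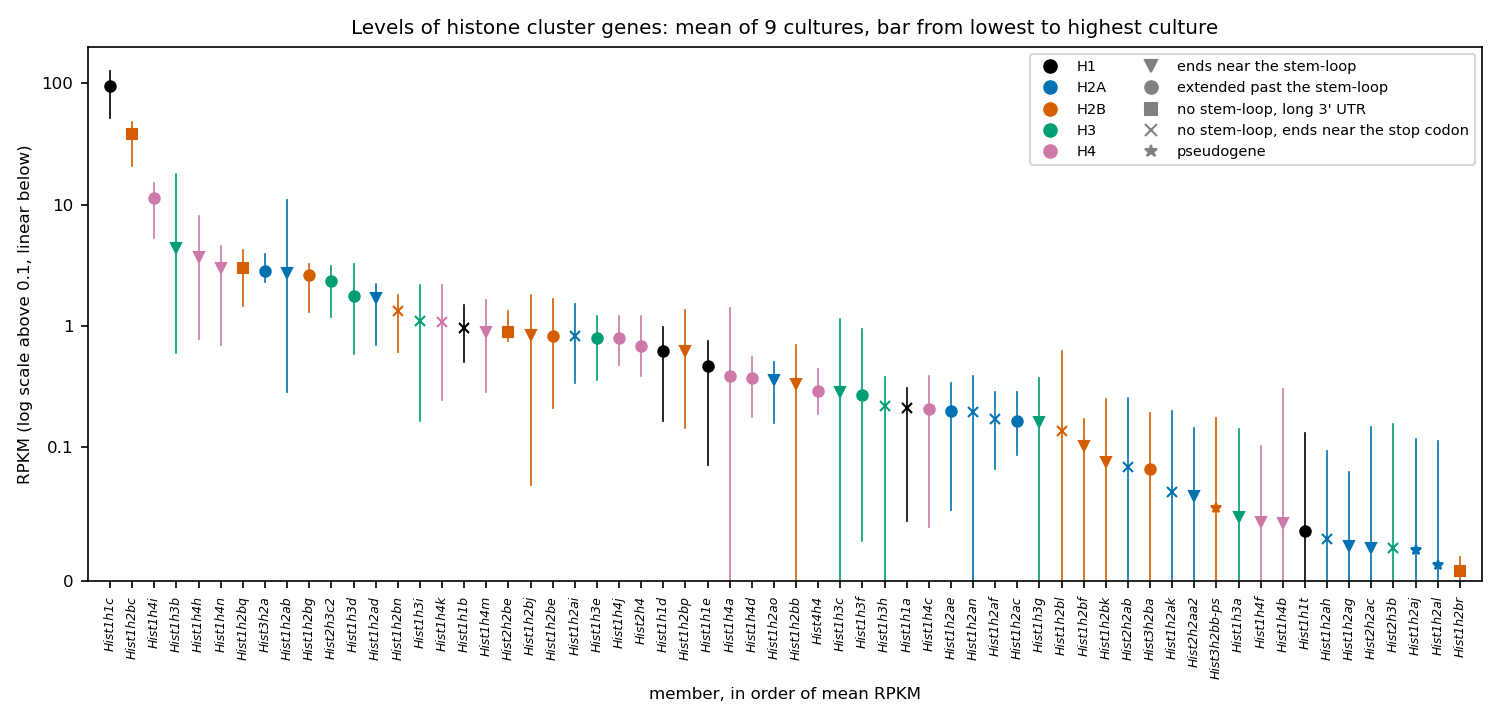
Mean RPKM over 9 cultures (y axis, logarithmic above 0.1 and linear below) of the 62 members with at least 1 count, in order of level (x axis), with bars from the lowest to the highest culture, colours for histone type and symbols for the annotated 3′ end. Hist1h1c at 94.4, Hist1h2bc at 38.2 and Hist1h4i at 11.3 RPKM stand above the rest, and Hist1h3b and Hist1h2ab have the widest bars among the members that follow.

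Levels were set beside the annotated 3′ ends. In 22 members the longest transcript runs more than 100 bases past the stem-loop, in 22 it ends within 100 bases of it, in 16 it ends near the stop codon with no stem-loop, in 4 H2B members it has a long 3′ UTR with no stem-loop, and 3 are the pseudogenes. Summed over members, the mean level was 121 RPKM for the first group and 42.0 for the 4 H2B members, against 19.4 for the 22 members that end near the stem-loop and 6.39 for the 16 that end near the stop codon. The medians over members were 0.545, 1.92, 0.22 and 0.181 RPKM, so each sum rests on its few high genes. The 16 members that end near the stop codon have at most 48 bases of annotated 3′ UTR, and a stem-loop may lie beyond it. Annotated ends may themselves follow the transcripts that were observed most often. Members also differ in the share of 100-base windows that are unique, and reads with several alignments were discarded. This share was 8.01% for Hist1h3h, which ends near the stop codon, and 94.9% for Hist1h1c, which runs past the stem-loop. It was the other way for Hist1h1b (100%) and Hist2h3c2 (38.4%) of the same 2 groups. The part of these in the order was not tested.

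None of the 28 members tested differed between Dp1Tyb and WT MEFs at an adjusted p below 0.05 in the quasi-likelihood test of edgeR after Benjamini-Hochberg adjustment. The same threshold called 0.165% of all 14567 genes tested. At an unadjusted p below 0.05, 1 member, Hist1h1b, was higher in Dp1Tyb and none was lower, against 1.36% and 1.77% of all genes, and DESeq2 also called 0 adjusted and the same member unadjusted. No tested member had normalised counts that did not overlap between genotypes, against 1.36% of all genes. The standard errors of the log2 fold changes were between 0.182 and 0.926, with a median of 0.335, so differences of the size of 1.26-fold were within 1 standard error for a typical member.

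Hist1h1b, which encodes the linker histone H1.5 (chr13:21779883-21780625) and shares no 100-base window with another gene, had normalised counts of 10.8, 10.4, 14.3 and 15.0 in WT replicates 1 to 4 and 9.65, 24.9, 29.0, 29.7 and 25.5 in Dp1Tyb replicates 1 to 5. Normalised counts are counts scaled to a library of average size by the TMM method. Of the Dp1Tyb cultures, 4 lay above every WT culture and replicate 1 lay below them all. The log2 fold change was 0.91 ± 0.335 (SE), with an unadjusted p of 0.0227 and an adjusted p of 1.0 in the quasi-likelihood test of edgeR after Benjamini-Hochberg adjustment. The exact permutation test over all 126 divisions of the cultures gave p = 0.0714 (two-sided). Within set 2 the groups did not overlap, which held for 1.9% of all genes in this direction, and the log2 fold change was 1.04 with an adjusted p of 0.697. Its counts were low, and without Dp1Tyb replicate 4, WT replicate 1 or WT replicate 2 the unadjusted p rose to 0.0511, 0.0559 and 0.0589. Without Dp1Tyb replicate 1 the log2 fold change was 1.11, with an unadjusted p of 0.000914 and an adjusted p of 0.33 in the same edgeR test. That culture was singled out after its values were seen.

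The other 3 H1 genes tested had smaller fold changes. Hist1h1c had normalised counts of 2026, 4186, 4537 and 4219 in WT and 2492, 3346, 5244, 4345 and 4807 in Dp1Tyb cultures. Replicate 1 was the lowest of its genotype in each case and the groups overlapped. The log2 fold change was 0.11 ± 0.27 (SE), with p = 0.667 in the exact permutation test, and 0.04 within set 2. Hist1h1d (H1.3) gave 0.16 ± 0.475, with counts of 29.9 and 51.1 in the replicates 1 and of 125 to 194 in all others. Hist1h1e, the gene of H1.4, gave 0.25 ± 0.46, and part of it overlaps Hist1h2be on the same strand. Hist1h1a (H1.1) and the testis gene Hist1h1t had too few counts to be tested. Hist1h1a, with at most 6 counts in a library, had normalised counts of 0.831, 3.11, 5.09 and 3.0 in WT and 1.93, 5.41, 6.0, 5.51 and 6.11 in Dp1Tyb cultures. As for Hist1h1b, 4 Dp1Tyb cultures lay above every WT culture and Dp1Tyb replicate 1 did not, at a depth where 3 counts is the floor.

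Core histone genes with moderate levels also overlapped between genotypes. Hist1h2bc had normalised counts of 601, 1495, 1265 and 1105 in WT and 1128, 1391, 1149, 1302 and 1111 in Dp1Tyb cultures. Apart from the low WT replicate 1 the values of the genotypes lay in the same range, and the log2 fold change was 0.12 ± 0.218 (SE; exact permutation p = 0.627). Hist1h4i had 95.5, 295, 249 and 222 in WT and 158, 272, 264, 207 and 209 in Dp1Tyb cultures, a log2 fold change of 0.04 ± 0.295. Here replicate 1 was again the lowest of each genotype. Hist1h2ad, an H2A gene, had 9.97, 25.9, 25.5 and 21 in WT and 29.0, 34.6, 32.0, 27.5 and 24.4 in Dp1Tyb cultures. Its log2 fold change was 0.52 ± 0.286, with p = 0.0238 in the exact permutation test over all cultures, p = 0.171 within set 2 and an adjusted p of 1.0 in the quasi-likelihood test of edgeR after Benjamini-Hochberg adjustment. Only Dp1Tyb replicate 5 lay within the WT range.

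Among the 28 members tested, the 5 with the largest SD over cultures also had the largest standard errors. Hist1h3b, a replication-dependent H3 gene with a short annotated 3′ end, had normalised counts of 9.14, 122, 38.7 and 28 in WT and 58.9, 307, 22, 51.8 and 22.4 in Dp1Tyb cultures. Replicate 2 of each genotype was the highest and the culture with the most reads had 33.6 times the level of the lowest. The log2 fold change was 0.90 ± 0.926 (SE), and -0.34 without Dp1Tyb replicate 2. Hist1h2ab, an H2A gene, had 3.32, 45.6, 11.2 and 23.0 in WT and 32.8, 143, 14.0, 25.3 and 15.3 in Dp1Tyb cultures, with the same high replicates 2. Its log2 fold change was 1.15 ± 0.858, and 0.09 without Dp1Tyb replicate 2. Hist1h4h, Hist1h2bj and Hist1h3i were the other 3 of these members. Hist1h4h ranged from 9.14 to 102 within WT and from 26.5 to 79.0 within Dp1Tyb cultures, with a log2 fold change of -0.18 ± 0.588.

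**Figure D3:**
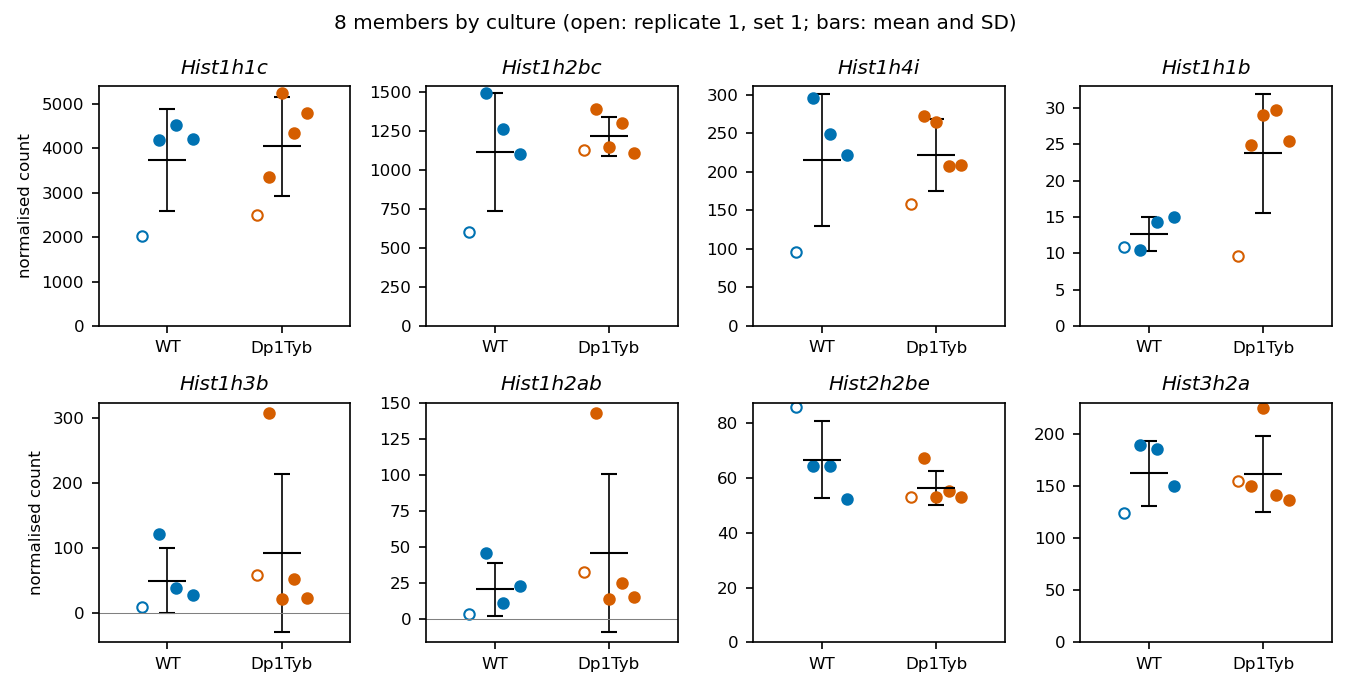
Normalised counts (y axes) of 8 members in the WT (blue) and Dp1Tyb (orange) cultures, with the mean and SD of each genotype in black and replicate 1 (set 1) as open circles. The genotypes overlap in every panel, and Dp1Tyb replicate 2 stands at 307 in Hist1h3b and 143 in Hist1h2ab. The WT replicate 1 is the lowest point for Hist1h1c, Hist1h2bc, Hist1h4i, Hist1h3b, Hist1h2ab and Hist3h2a and the highest for Hist2h2be.

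By type, the median log2 fold change of the members tested was 0.20 for 4 H1, 0.47 for 4 H2A, 0.24 for 8 H2B, 0.27 for 5 H3 and -0.01 for 7 H4 genes. By cluster it was 0.25 for 23 Hist1 genes and -0.24 for 3 Hist2 genes. The only tested genes of the other clusters were Hist3h2a at 0.00 ± 0.186 and Hist4h4 at -0.14 ± 0.288. Over all 28 members the median was 0.23, with 22 above 0, against a median of 0.00 and 51.0% above 0 over all genes tested. Within set 2 the median was 0.04 with 16 of 30 members above 0, and without WT replicate 1 it was -0.08 with 13 of 31 above 0. The sign of the median over all members thus changed without 1 WT culture, as did those of the H1 (-0.10) and H2B (-0.05) genes. The medians of the H2A (0.27), H3 (0.09), H4 (-0.11) and Hist2 (-0.11) genes kept their sign without it, and that of the H3 genes was -0.14 without Dp1Tyb replicate 2.

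**Figure D4:**
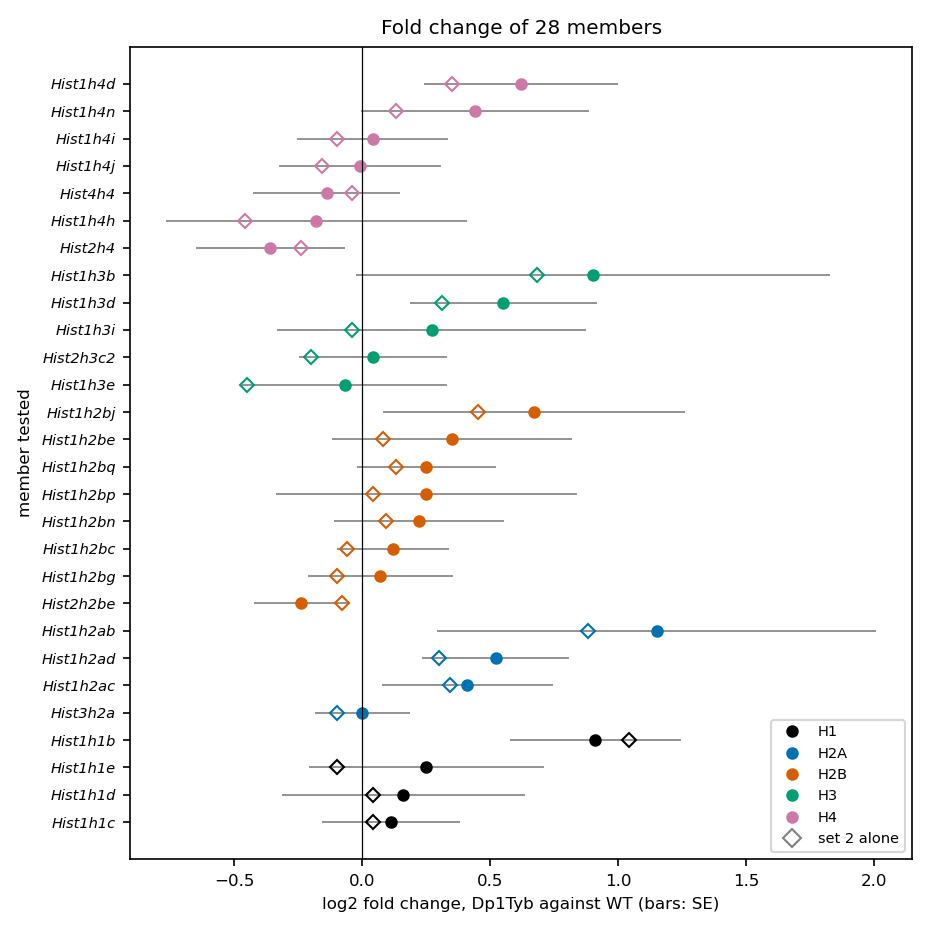
Log2 fold change of Dp1Tyb against WT (x axis) for the 28 members tested (y axis), grouped by histone type, with standard errors as bars and the values from set 2 alone as open diamonds. Most filled points lie to the right of 0. The diamond lies closer to 0 than the filled point for 20 members and farther from it for 8, among them Hist1h1b, which moves from 0.91 to 1.04, and Hist1h3e, which moves from -0.07 to -0.45.

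The culture that stood apart was WT replicate 1. The summed normalised count of all members was 3334 in it, against 7606, 7318 and 6680 in the other WT and 4868, 7076, 7961, 7087 and 7202 in the Dp1Tyb cultures. Dp1Tyb replicate 1, the other culture of set 1, was the next lowest. WT replicate 1 had the lowest normalised count of the 9 cultures in 24 of the 28 members tested, against 23.2% of all genes, a count that was chosen after the values were seen. It held for 22 of 23 genes of the Hist1 cluster. The exceptions were Hist1h1b, Hist2h2be, Hist2h4 and Hist4h4. Hist2h2be, an H2B gene with a long 3′ UTR, had 85.6 in WT replicate 1 and 52.1 to 67.1 in the other cultures, and Hist2h4 had 49.0 there and 17.3 to 34.7 in the others. WT replicate 1 was thus the highest culture for both. Its library was the deepest of the 9, with 30009361 counted reads.

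Within set 1, 24 of the 28 members were higher in Dp1Tyb replicate 1 than in WT replicate 1, against 48.1% of all genes tested. The median difference was 1.00 on the log2 scale. WT replicate 1 was the lowest culture in the same 24 members, so this count follows from that one and is no separate result. Hist1h3b differed by 2.56, Hist1h2ab by 2.97 and Hist1h1e by 2.34, while Hist2h2be, Hist2h4, Hist4h4 and Hist1h1b were lower, by -0.68, -0.48, -0.42 and -0.15. With 1 culture per genotype in set 1, genotype and culture cannot be told apart there.

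**Figure D5:**
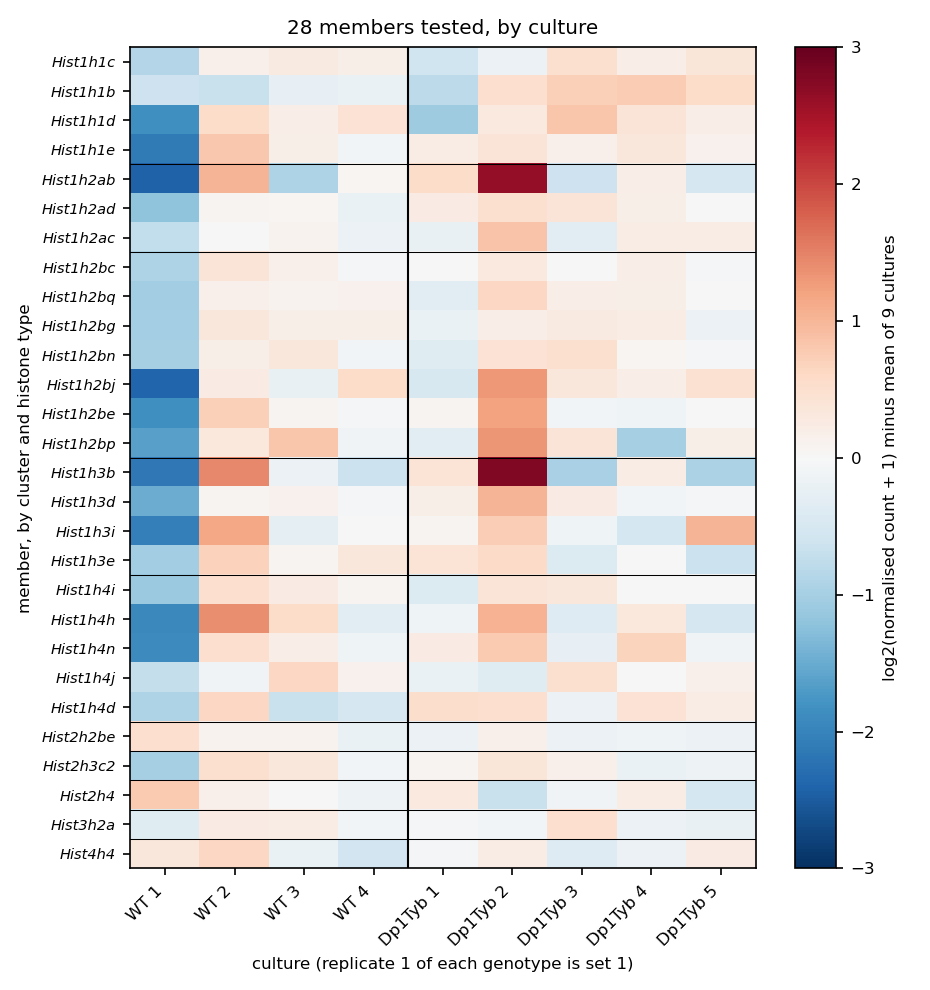
Log2(normalised count + 1) of the 28 members tested (rows, by cluster and histone type) in each culture (columns), relative to the mean of the 9 cultures and shown by colour. The WT replicate 1 column is blue, or low, in 25 rows and red in those of Hist2h2be, Hist2h4 and Hist4h4, and Dp1Tyb replicate 2 is darkest red for Hist1h3b and Hist1h2ab.

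As a sum, the members that end near the stem-loop ranged 12.9-fold between cultures and those that run past it 2.54-fold. Their summed normalised count was 56.5, 410, 233 and 171 in WT and 229, 726, 168, 246 and 164 in Dp1Tyb cultures. That of the members annotated past the stem-loop was 2484, 5379, 5526 and 5111 in WT and 3269, 4550, 6321, 5228 and 5641 in Dp1Tyb cultures. The first sum was highest in Dp1Tyb replicate 2 and WT replicate 2, the second in Dp1Tyb replicate 3, and WT replicate 1 was lowest in both. Hist1h1c made up most of the second sum, with 2026 of 2484 in WT replicate 1 and 5244 of 6321 in Dp1Tyb replicate 3. In Dp1Tyb replicate 2, Hist1h3b (307) and Hist1h2ab (143) made up most of the first. With more than 3 counts in every culture, single members near the stem-loop ranged 3.47-fold (Hist1h2ad) to 43-fold (Hist1h2ab). Those annotated past it ranged 1.82-fold (Hist3h2a) to 9.23-fold (Hist1h1e), so these ranges overlap. Of the 7 members tested that end near the stem-loop, 6 were highest in Dp1Tyb replicate 2, against 3 of 15 annotated past it and 27.1% of all genes. This count was chosen after the values were seen. The share over all genes shows that this culture was an extreme one for other genes too.

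Other values differed between these cultures. The sum of 23 S phase genes, which encode proteins of DNA replication, was 19368 in WT replicate 1, the highest of all, and 17541 in Dp1Tyb replicate 2, with a range of 14025 to 18947 in the other cultures. That of 16 genes of G2 and M phase was 15257 and 13023 in these cultures and 9680 to 16034 in the others. The sum of skeletal muscle markers was 324 in WT replicate 1, the lowest, and 6768 in Dp1Tyb replicate 2, the highest, while WT replicate 2 had 1964. In the same order the macrophage sum was 2861, 454 and 1542. The sum of 18 RNAs without a poly(A) tail, of which 9 stayed at or below 3 counts, was 111 in WT replicate 1 and 74.7 in Dp1Tyb replicate 2, within the range of 69.1 to 144 in the others. The part of these differences in the histone values was not tested.

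Genes outside the clusters that act with histones were read from the same fit. Of 11 variant histone genes, most of which give histones outside S phase from polyadenylated mRNAs, 0 were called and the median log2 fold change was -0.08. H3f3b, which encodes H3.3, had a mean normalised count of 13844 ± 873 in WT and 13819 ± 2850 in Dp1Tyb MEFs (SD, n = 4 and 5), and H2afz, which encodes H2A.Z, had 1673 ± 145 and 1648 ± 216. Of 21 genes of histone mRNA transcription and 3′ end processing, 0 were called at an unadjusted p below 0.05 and the median was -0.04. Slbp, the stem-loop binding protein, had 802 ± 14.1 and 773 ± 65.5, and Npat, the coactivator of histone gene transcription, 886 ± 159 and 871 ± 39.9. The values of Slbp were 806 in WT replicate 1 and 787 to 820 in the other WT cultures. Those of Npat were 1087 in WT replicate 1, 739 to 938 in the other WT and 836 to 929 in Dp1Tyb cultures. In WT replicate 1, where most members were low, Slbp thus lay within the range of the other WT cultures and Npat was highest. The part of either gene in the histone values was not tested.

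Of 22 histone chaperone genes, 1 was higher and 2 were lower in Dp1Tyb at an unadjusted p below 0.05, and none at an adjusted p. For this and the counts below, the unadjusted threshold called 1.36% of all genes tested as higher and 1.77% as lower. Chaf1b, a subunit of the assembly factor CAF-1 that lies in the duplicated stretch, had 287, 232, 291 and 282 in WT and 370, 329, 373, 300 and 384 in Dp1Tyb cultures. These did not overlap, with a log2 fold change of 0.36 ± 0.111 (SE) and an adjusted p of 0.98 in the quasi-likelihood test of edgeR after Benjamini-Hochberg adjustment. Anp32e, a chaperone that removes H2A.Z from chromatin, had a log2 fold change of -0.24 ± 0.0828, and Tonsl, which binds new histones at replication forks, one of -0.15 ± 0.0633. Of the 23 S phase genes, 3 were lower at an unadjusted p below 0.05, namely Prim1 (-0.33 ± 0.137), Lig1 (-0.29 ± 0.122) and Rfc3 (-0.24 ± 0.107), and the median was -0.14. Of 16 genes of G2 and M phase none passed, with a median of -0.20. Of 7 Schwann and neural crest markers tested, 5 were lower at an unadjusted p below 0.05, with Foxd3 at -1.79 ± 0.325, Sox10 at -1.71 ± 0.385 and Erbb3 at -1.56 ± 0.369. The skeletal muscle markers Myh3 (3.30 ± 0.678) and Des (1.35 ± 0.335), the endothelial marker Emcn (1.77 ± 0.578) and the fibroblast marker Fn1 (0.36 ± 0.156) were higher at an unadjusted p below 0.05. They were 2 of 4 skeletal muscle, 1 of 4 endothelial and 1 of 12 fibroblast markers tested. The medians over the markers tested were 1.23, 0.17 and 0.04. None of these 7 markers of other cells or of fibroblasts passed the adjusted threshold.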

How the data were processed

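Only the deposited table of counts was used. The authors trimmed reads with Trim Galore, aligned them to GRCm38 with TopHat2 2.0.12, discarded reads with several alignments and counted reads per gene with HTSeq. The strand setting of the counting is not given in the sources used here. The deposited normalised values and the authors' comparison (DESeq2 1.6.3) were not used. Counts were tested with edgeR 4.0.16 in R 4.3.3 (TMM factors, its filter on low counts, quasi-likelihood test, two-sided, no covariate, Benjamini-Hochberg adjustment over all 14567 genes tested), and the scripts were tested on simulated data. DESeq2 1.42.0 served as an alternative. Exact permutation tests used log2(normalised count + 1). RPKM used the summed exon length of GENCODE M21. The members and lists were chosen with earlier results of these data known. Members named were those at an adjusted p below 0.05, the 3 of each type and 2 of each cluster with the highest RPKM, up to 5 in each direction with the smallest unadjusted p below 0.05, those without overlap between genotypes, and the 5 with the largest SD. Other members named are counts of 5 or fewer or were singled out after their values were seen. From other lists, up to 3 genes with the smallest unadjusted p below 0.05 were named, with Slbp, Npat, Chaf1b, H2afz and H3f3b in any case. Alternatives comprised scaling, filters, the culture set, a replicate block and leaving out each culture. Protein sequences were not used here.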

Additional observations from a re-analysis of the deposited data

Results flagged for a closer look

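In 8 of 38 groups of cultures examined, from the 20 members named by rule, 1 culture lay far from the others of its genotype by Dixon's criterion. Chance gives about 1 in 20 such groups where they are independent and not chosen by their values. Here some members were named for a large SD or a small p, and all share the same cultures. The 8 groups therefore cannot be set against that share. In WT replicate 1, Hist1h1c stood at a normalised count of 2026 and Hist1h2bq at 73.1, both below the other WT cultures. In Dp1Tyb replicate 2, Hist1h3b stood at 307, Hist1h2ab at 143, Hist1h3d at 110 and Hist2h2be at 67.1, above the other Dp1Tyb cultures. In Dp1Tyb replicate 3, Hist3h2a stood at 225, above the others. In Dp1Tyb replicate 1, Hist1h1b stood at 9.65, below the others.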

How the results depend on the processing

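No member passed an adjusted p below 0.05 under any of the 17 alternatives, and none was lower at an unadjusted p below 0.05. With the replicate block 2 members were higher at an unadjusted p below 0.05, Hist1h1b and Hist1h2ab (adjusted p = 0.882 for each in edgeR), against 1 without the block. The numbers were not taken to pair the cultures, since the deviations of same-numbered cultures correlated at 0.247, 0.732, 0.0299 and 0.382 and WT replicates 1, 3 and 4 correlated best with another number. Leaving out 1 culture gave 0 to 1 such members: 0 without WT replicate 1 or Dp1Tyb replicate 4, and without WT replicate 2 it was Hist1h4d (adjusted p = 0.944 in edgeR) in place of Hist1h1b. The median log2 fold change of the members ranged from -0.08 (without WT replicate 1) to 0.35 (without WT replicate 2) over these, was 0.04 in set 2 alone and 0.10 with at least 10 counts in every culture. That of the Hist2 cluster was 0.05 in DESeq2, which kept 7 of its genes rather than 3. Without Dp1Tyb replicate 2 the log2 fold change of Hist1h3b was -0.34, and without WT replicate 2 that of Hist1h4h was 0.46. WT replicate 1 was the lowest culture in 14 of 18 members with at least 10 counts in every culture (24.4% of all genes) and in 24 of 28 with DESeq2 size factors (25.4%), both chosen after the values were seen. Levels by the longest transcript or by the median over cultures moved by no more than 1 SD, except that Hist1h2be went from 0.828 to 1.47 RPKM (SD 0.397) by its longest transcript. Reads that aligned to more than 1 place were not counted, and under 50% of windows are unique in 13 of 20 H2A, 5 of 16 H2B, 6 of 12 H3 and 4 of 13 H4 members. Windows shared with a gene annotated at the same place also count as not unique, as for Hist2h2ab and Gm15444. These shares therefore do not measure sequence shared between paralogs alone.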
